A study of Mus musculus with 9 samples.

Results

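Pramel1, Pramel4, Pramel5, Pramel6 and Pramel7 are mouse members of the PRAME family, a rodent-expanded group of leucine-rich repeat genes whose transcripts are best known from germ cells, oocytes and preimplantation embryos. These 5 genes were taken by name, with their levels in these samples already known, and each had 1 array probe, out of 19744 RefSeq genes with a probe in the deposited series table. Probes of 4 of the 5 genes are in that table, and the Pramel4 probe is read from the scan files. Transcripts were measured on 9 single-colour arrays, 3 per group, of mouse embryonic stem cells (mESCs) of the line E14Tg2a, which is male, of strain 129P2/OlaHsd and was grown on gelatin with serum and LIF. The groups were Ring1B-/- cells (KO), in which exon 3 of Rnf2, the gene of RING1B, is deleted on both alleles, Ring1B I53A/I53A cells (I53A), whose endogenous protein carries alanine in place of the isoleucine that contacts the E2 enzyme, and the parental wild-type cells (WT). Both mutants were derived from the parental line by gene targeting, and no second line of either genotype is described for the arrays, so line and genotype cannot be told apart. RING1B is the main H2A ubiquitin ligase of Polycomb repressive complex 1 in mESCs, and the I53A protein enters the complex but lacks ligase activity, so the comparison of KO, I53A and WT asks which transcripts differ without the protein and which without its catalysis.

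PRAME family proteins fold into leucine-rich repeats, and several act as substrate receptors of CUL2 ubiquitin ligases. In the mouse embryo Pramel6 and Pramel7 are transcribed around the morula and blastocyst stages, and PRAMEL7 is known to hold cultured ES cells in a naive state, working with LIF-STAT3 signalling and directing the CUL2-dependent loss of UHRF1, the factor that brings DNA methyltransferase DNMT1 to hemimethylated DNA. Less is known of Pramel1, Pramel4 and Pramel5, which lie in the large PRAME cluster of mouse chromosome 4. Transcripts of Pramel1 are known from the testis.

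Pramel6 and Pramel7 form a pair of their own, apart from that cluster. In GRCm38 Pramel7 (chromosome 2, 87489088 to 87492418, minus strand) and Pramel6 (chromosome 2, 87506565 to 87510865, plus strand) are transcribed away from each other from starts 14147 bases apart, and no RefSeq gene lies between them. Pramel1 (chromosome 4, 143394441 to 143399819), Pramel4 (chromosome 4, 144059125 to 144069327) and Pramel5 (chromosome 4, 144270633 to 144280466) are among 28 PRAME family genes that RefSeq places on chromosome 4. The 250 bases upstream of the start are printed here for the divergent pair and, as a contrast within the same family, for Pramel1 (RefSeq, GRCm38.p6, 5′ to 3′ on the strand of the gene). Capitals mark each CG, the dinucleotide that is dense in the CpG islands where Polycomb complexes usually lie.
Pramel6 (chr2:87506315-87506564, plus strand): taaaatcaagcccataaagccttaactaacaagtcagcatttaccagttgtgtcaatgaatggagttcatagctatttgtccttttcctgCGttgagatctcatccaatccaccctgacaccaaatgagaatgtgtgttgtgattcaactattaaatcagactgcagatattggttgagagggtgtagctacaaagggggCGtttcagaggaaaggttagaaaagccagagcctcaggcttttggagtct
Pramel7 (chr2:87492419-87492668, minus strand): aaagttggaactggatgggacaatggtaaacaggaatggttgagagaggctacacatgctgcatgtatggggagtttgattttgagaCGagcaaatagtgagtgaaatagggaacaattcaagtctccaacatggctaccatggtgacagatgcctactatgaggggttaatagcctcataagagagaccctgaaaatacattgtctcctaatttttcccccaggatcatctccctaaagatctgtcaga
Pramel1 (chr4:143394191-143394440, plus strand): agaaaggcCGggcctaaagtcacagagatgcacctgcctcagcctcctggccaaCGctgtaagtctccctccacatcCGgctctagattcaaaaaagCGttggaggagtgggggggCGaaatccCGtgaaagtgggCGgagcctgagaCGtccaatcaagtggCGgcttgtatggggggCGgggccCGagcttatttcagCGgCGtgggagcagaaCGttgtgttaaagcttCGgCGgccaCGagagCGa

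The upstream windows of Pramel6 and Pramel7 held 2 and 1 CG, against a median of 6 over the 27025 genes with a promoter window of this length. The window of Pramel1 held 18, more than in 78.4% of all promoters and the most of any of the 42 PRAME family genes with a window, whose median was 1. Pramel4 had 1 and Pramel5 had 0. The windows of Pramel4 and Pramel5 were 88% identical over 250 bases in a global alignment, whereas those of Pramel6 and Pramel7 were 50.8% identical, the lowest value of the 10 pairs. No match was found in any of the 5 windows, on either strand, for CACGTG (E-box, in 6.05% of all promoters), TCCCGC (E2F core, 16.9%), TTCNNNGAA (STAT site, 7.18%) or TATAAA (13%), which says only that these letters are not in these windows.

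The last 30 bases of the 60-base probes of the 4 genes in the series table are given because each result below rests on 1 such probe, with AATAAA, the polyadenylation signal, in capitals where a probe holds it.
Pramel6: ccttatttgcatgtAATAAAtattctgagc
Pramel7: agcaatgtatgccaagccaaatcctttttt
Pramel1: ttgatggttcacctagacctaggactgtta
Pramel5: ttatggagtataagtctgactgaaccttgg

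Only the Pramel6 probe of these 4 held the signal. The longest run that the Pramel6 probe shared with a probe of another PRAME gene was 8 bases (Oog3), and for Pramel7 it was 9 bases (Pramel34). Over all 30169 other probes of the table the longest shared run was 14 bases for Pramel6, 14 for Pramel7, 14 for Pramel5 and 13 for Pramel1. Probes were compared with probes and not with transcripts, so these runs do not show which transcripts a probe reads. The probe of Pramel1 was tied to its gene by its transcript start, within 100 bases of the RefSeq start, and the other 4 probes by RefSeq accession.

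On each of the 9 arrays 45.4% to 57.5% of table probes carried the flag for well above background, which Feature Extraction sets for a spot clearly brighter than its surround. Levels are log2 processed signals after quantile normalisation, and the lowest signal with that flag lay between 2.65 and 4.28 on that scale, depending on the array. Some spots above that signal lacked the flag, such as Pramel6 on I53A 1 at 3.55 beside 3.06, so it is not a strict detection limit. The Rnf2 probe read 7.78 ± 0.39 in KO cells, 8.79 ± 0.27 in I53A cells and 8.35 ± 0.11 in WT cells (SD, n = 3 each). Its place relative to exon 3 is not given, so it does not check the deletion. Slide 1 carried KO 2, KO 3, I53A 1, I53A 2, WT 1 and WT 2, and slide 2 carried KO 1, I53A 3 and WT 3. Each group had its own column on both slides, so the slide column cannot be told apart from genotype.

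Of the 5 genes, Pramel6 and Pramel7 were transcribed at measurable levels and the other 3 were not well above background on any array. Both measured genes were highest in KO cells. Pramel6 was measured in KO cells alone, whereas Pramel7 was measured in all groups and differed between I53A and WT cells by less than the spread of their arrays. Since the genes were chosen by name with these KO, I53A and WT array levels in view (the KO rise of Pramel6 and Pramel7 and the background signal of the others), their levels are a description without tests. These are bulk cultures, in which a change in the share of cells that transcribe a gene and a change in RNA per cell cannot be told apart. Of the 4 genes in the series table, 2 were called higher in KO than in WT cells, where 2.73% of all probes were called higher and 1.11% lower, a call being a limma p adjusted over all table probes that lies under 0.05 together with over 2-fold. The same 2 were called in KO against I53A cells, where 0.958% of probes were called higher and 0.368% lower. None passed in I53A against WT cells, where 0.235% of probes were called higher and 0.0928% lower.

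**Figure D1:**
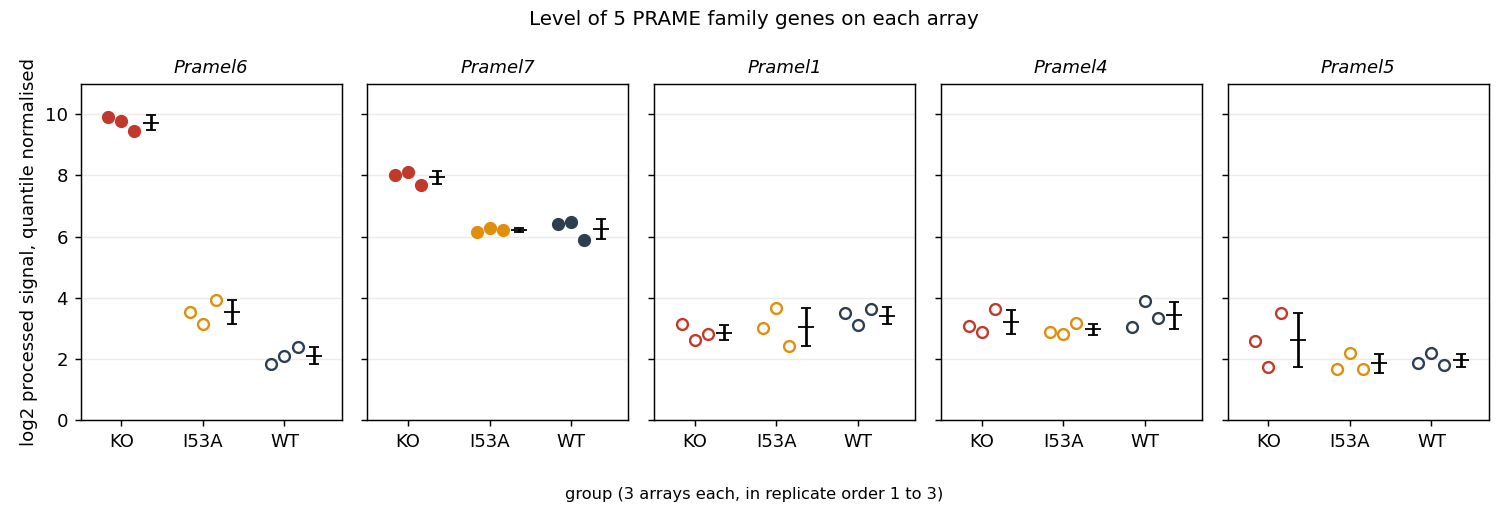
Log2 processed signal (vertical axis) of the 5 genes on the 9 arrays, in KO, I53A and WT cells from left to right in each panel. Each circle is 1 array, filled where the spot was well above background and open where it was not, and the bar gives the mean ± SD (n = 3). Pramel6 sits between 9.45 and 9.91 in KO cells and below 4 elsewhere, Pramel7 is filled on every array, and Pramel1, Pramel4 and Pramel5 are open throughout.

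Pramel6 read 9.91, 9.79 and 9.45 on the KO arrays (log2 signal, replicates 1 to 3), 3.55, 3.16 and 3.94 on the I53A arrays and 1.85, 2.1 and 2.39 on the WT arrays. All 3 KO spots were well above background, and none of the 6 others was. Before normalisation the processed signal was 996, 1010 and 831 units in KO cells, 16.3, 10.3 and 14.3 in I53A cells and 3.56, 3.97 and 6.41 in WT cells. Every KO array was thus far above every other array, with no overlap (11.6% of all probes had the KO arrays wholly above the WT arrays, and 7.61% wholly above the I53A arrays) and a gap of 5.5 log2 units to the nearest I53A array. The difference between group means was 7.60 for KO minus WT and 6.16 for KO minus I53A. Because the dimmer groups had no spot above background, these differences are not folds. Against the lowest signal that carried the flag on each array, or the spot's own signal where that was higher, Pramel6 was at least 65.9-fold higher in KO than in WT cells. Against I53A cells it was at least 57.8-fold higher in KO cells.

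In I53A and WT cells alike no Pramel6 spot was well above background. All 3 I53A arrays were above all 3 WT arrays, by 0.77 log2 units at the nearest pair, but signals this low do not rank the groups and no fold is given, and 8.09% of all probes had the I53A arrays wholly above the WT arrays. The measured I53A minus WT difference of means was 1.44, and with normexp background correction it was 0.12.

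Pramel7 read 8.01, 8.11 and 7.69 on the KO arrays, 6.15, 6.28 and 6.22 on the I53A arrays and 6.41, 6.47 and 5.88 on the WT arrays, and all 9 spots were well above background. The lowest KO array lay above the highest of the other 6. The mean was 7.94 ± 0.22 in KO cells, 6.22 ± 0.07 in I53A cells and 6.25 ± 0.32 in WT cells (SD, n = 3 each). Pramel7 was 3.21-fold higher in KO than in WT cells (log2 difference 1.68) and 3.29-fold higher in KO than in I53A cells (1.72). The 3 I53A arrays fell within the range of the WT arrays, with a difference of -0.04.

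The pair thus shared the KO rise but differed in its size. KO 3 had the lowest KO value of both genes, 9.45 for Pramel6 and 7.69 for Pramel7. On the second slide, with 1 array per group, KO 1 minus WT 3 was 7.52 for Pramel6 and 2.13 for Pramel7, and on the first slide alone the difference of means was 7.64 and 1.46. Under normexp background correction the KO minus WT difference was 4.0 for Pramel6 and 0.99 for Pramel7, and KO minus I53A was 3.88 and 0.97, so that Pramel7 no longer passed the 2-fold threshold.

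Pramel1, Pramel4 and Pramel5 were at background on all 9 arrays. Pramel1 averaged 2.86 ± 0.25 in KO cells, 3.04 ± 0.62 in I53A cells and 3.42 ± 0.28 in WT cells. Pramel4, from the scan files, averaged 3.21 ± 0.39, 2.97 ± 0.18 and 3.43 ± 0.44 in KO, I53A and WT cells. Pramel5 averaged 2.62 ± 0.88, 1.86 ± 0.30 and 1.96 ± 0.22 in KO, I53A and WT cells, with the highest single value, 3.51, on KO 3. The groups overlapped for all 3 genes in each comparison. Signals this low do not rank the groups, and transcripts of these genes were not detectable here rather than shown to be absent.

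Within 500 kb of the pair 46 genes had a tested probe, all of them olfactory receptor genes, which encode odorant receptors of nasal neurons. By limma, with p adjusted over all tested probes, none was called in any comparison, against 3.08% of all genes called higher in KO than in WT by their brightest probe. The lowest adjusted p was 0.175 for KO against WT, and at an unadjusted p under 0.05 none was higher and 3 were lower in KO cells. The KO minus WT differences of the 46 ran from -0.81 to 0.63 with a median of -0.04, beside a median of -0.02 over all genes. The nearest, Olfr153, 21170 bases beyond Pramel6, averaged 3.20 ± 0.37 in KO cells, 2.96 ± 0.19 in I53A cells and 3.61 ± 0.26 in WT cells. Of the 46, 23 were at background on all 9 arrays, where a difference below the detection limit cannot be seen.

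**Figure D2:**
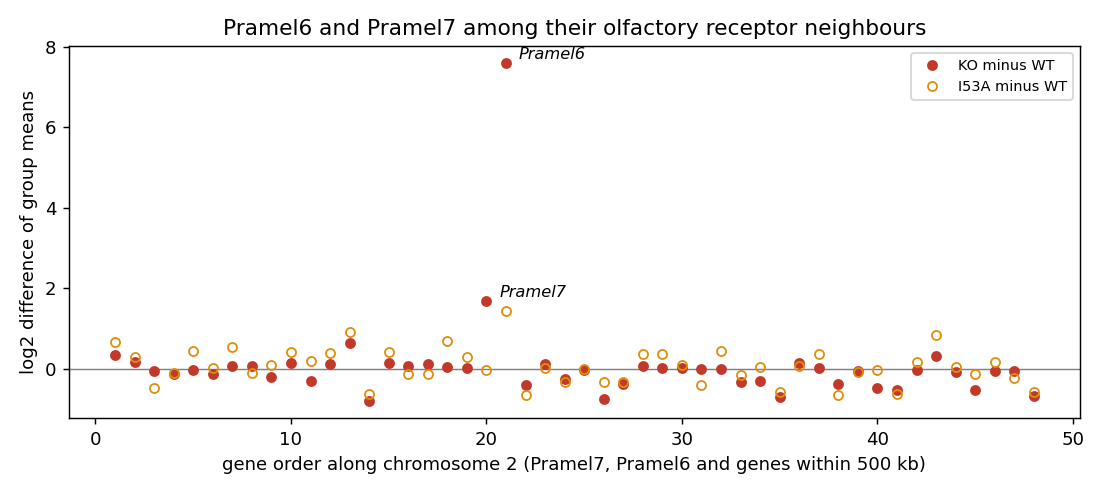
Log2 difference of group means (vertical axis) for Pramel7, Pramel6 and the 46 olfactory receptor genes with a tested probe within 500 kb, in their order along chromosome 2 (horizontal axis). Filled circles are KO minus WT and open circles I53A minus WT. Pramel6 at 7.60 and Pramel7 at 1.68 stand apart in KO cells from neighbours that run from -0.81 to 0.63.

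Around the 3 genes of the chromosome 4 cluster, 11 genes outside the PRAME family had a tested probe, among them the arylacetamide deacetylase-like genes. Only Prdm2, which encodes a PR domain zinc finger protein, was called, 1 of 11 beside 3.08% of all genes called higher, and 3 of the 11 were higher at an unadjusted p under 0.05. It averaged 5.93 ± 0.08 in KO cells, 5.28 ± 0.31 in I53A cells and 4.11 ± 0.60 in WT cells, where no array was above background. By limma KO minus WT was 1.82 ± 0.31 (SE, adjusted p = 0.00916), or at least 3.41-fold, and no other comparison of it was called.

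RefSeq holds 52 PRAME family genes in the mouse, and 25 besides the 5 described had a probe in the series table. These were taken by family name and not by their own levels, and they were tested. The family list was chosen with earlier results of these data known, the rise of Pramel6 and Pramel7 among them, so its counts are not an independent test. By the brightest probe of each gene, 5 of the 25 rose in KO against WT cells and none fell, against 3.08% and 1.24% of all genes. The mean was higher in KO cells for 19 of the 25, with a median difference of 0.24 beside -0.02 over all genes. Over the 15 genes above background on some KO or WT array, with dim ones at their bounds, the median was 0.89. Some of these, such as Pramel19 and Pramel24, were kept through their KO arrays alone. That choice raises the median, so 0.89 cannot be set beside the value over all genes. Of the 25, 10 were at background on all 9 arrays. In KO against I53A cells 4 rose and none fell, against 1.09% and 0.436% of all genes, with a median of 0.27. In I53A against WT cells limma called none, against 0.314% of all genes called higher. At an unadjusted p under 0.05 there 4 were higher and none was lower, and the median difference was 0.15.

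**Figure D3:**
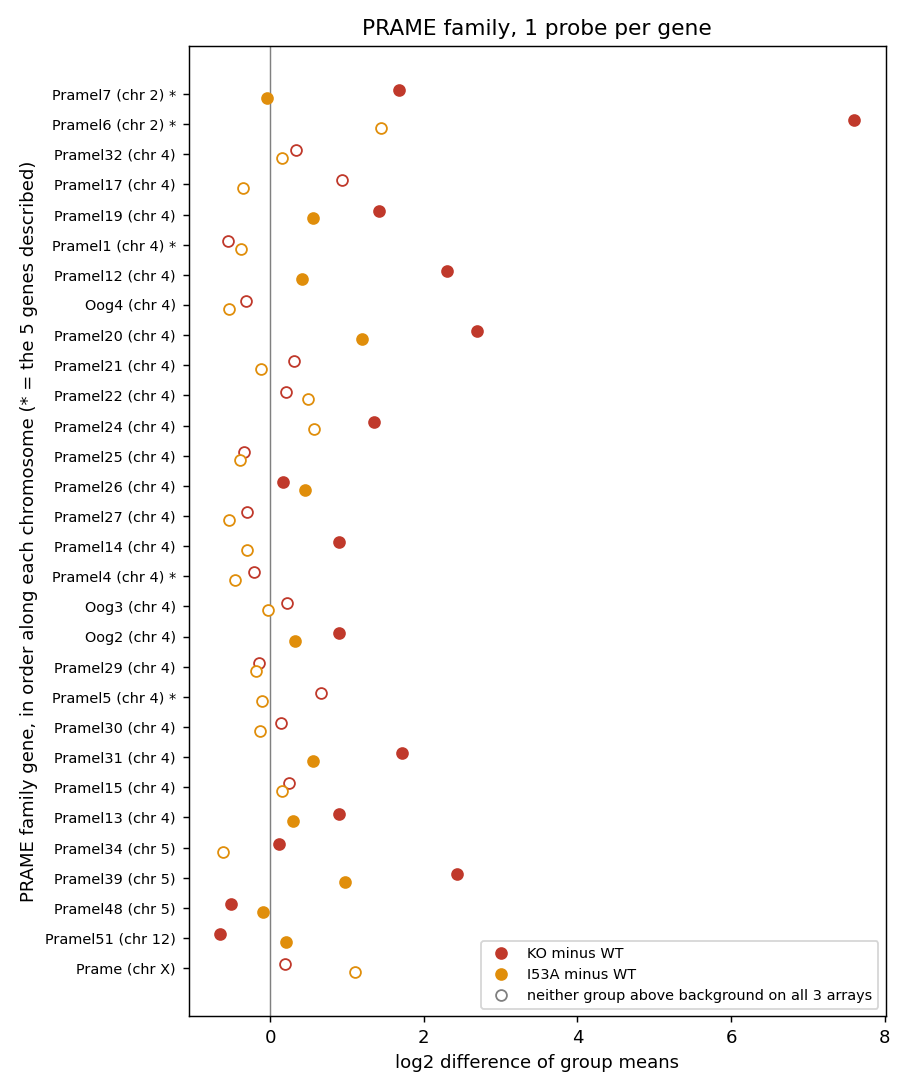
Log2 difference of group means (horizontal axis) for 30 PRAME family genes, 1 probe each, in their order along each chromosome from top to bottom. KO minus WT is red and I53A minus WT orange, open circles mark genes with neither group above background on all 3 arrays, and asterisks mark the 5 genes described. Pramel6 lies at 7.60, a fitted value against WT spots at background, and the next KO circle is Pramel20 at 2.69.

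Pramel20 (chromosome 4, 143567467 to 143573798) read 7.94, 7.81 and 7.88 on the KO arrays, 6.15, 6.43 and 6.54 on the I53A arrays and 5.37, 5.03 and 5.16 on the WT arrays. The 3 groups did not overlap, with I53A cells between the others. By limma Pramel20 rose by 2.69 ± 0.21 log2 units (SE, adjusted p = 1e-04) in KO against WT cells, or 6.46-fold with 1 of 3 WT arrays above background, and by 1.5 ± 0.21 (adjusted p = 0.0078) in KO against I53A cells. Its I53A minus WT difference was 1.19 ± 0.21 (adjusted p = 0.0565).

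Pramel39 read 8.23, 8.43 and 8.47 on the KO arrays, 7.25, 6.75 and 6.74 on the I53A arrays and 6.19, 6.25 and 5.39 on the WT arrays. By limma it rose by 2.43 ± 0.28 log2 units in KO against WT cells (adjusted p = 0.00114) and by 1.46 ± 0.28 in KO against I53A cells (adjusted p = 0.0352), while I53A minus WT was 0.97 ± 0.28 (adjusted p = 0.264). The accession of the probe names Pramel39 (chromosome 5, 94302519 to 94306796), yet the deposited start of its transcript is that of another copy, Pramel37, so which of the chromosome 5 copies it reads is uncertain.

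Pramel12 (chromosome 4, 143412155 to 143421091), 1 of the genes nearest to Pramel1, read 7.91, 8.21 and 9.19 on the KO arrays, 6.35, 6.58 and 6.72 on the I53A arrays and 6.46, 5.95 and 6.0 on the WT arrays. KO arrays were above all others, and I53A and WT arrays overlapped. It rose by 2.30 ± 0.33 in KO against WT cells (limma, adjusted p = 0.0035) and by 1.90 ± 0.33 in KO against I53A cells (adjusted p = 0.023).

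Pramel31 (chromosome 4, 144357964 to 144364419), on the side of the cluster that holds Pramel5, read 7.29, 7.43 and 7.41 in KO cells, 6.2, 6.19 and 6.29 in I53A cells and 5.51, 6.06 and 5.44 in WT cells. It rose by 1.71 ± 0.23 in KO against WT cells (limma, adjusted p = 0.0024) and by 1.15 ± 0.23 in KO against I53A cells (adjusted p = 0.0405). Pramel19 (chromosome 4, 101940407 to 101943183), far from the cluster, read 5.96, 6.37 and 6.25 in KO cells, 5.52, 5.42 and 5.05 in I53A cells and 5.25, 4.68 and 4.38 in WT cells, and rose at least 2.68-fold in KO against WT cells (adjusted p = 0.0176).

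**Figure D4:**
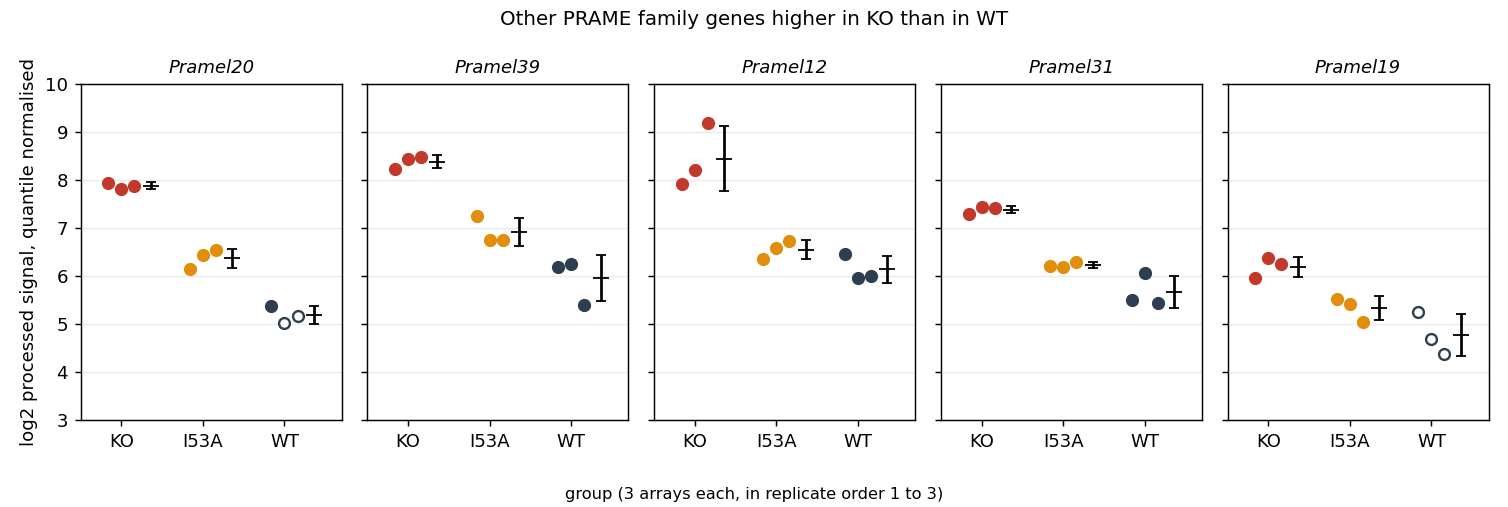
Log2 processed signal (vertical axis) on each of the 9 arrays for the 5 other PRAME family genes that rose in KO against WT cells, with KO, I53A and WT from left to right. Circles are arrays, open where not well above background, and bars give the mean ± SD (n = 3). Pramel20 lies between 7.81 and 7.94 in KO cells, 6.15 and 6.54 in I53A cells and 5.03 and 5.37 in WT cells.

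The calls in KO against I53A cells were the less steady. That of Pramel31 was lost on leaving out any array but WT 2, that of Pramel39 without WT 1 or any KO or I53A array, and that of Pramel12 without KO 2 or any I53A array, while Pramel20 stayed called without each array in turn. In KO against WT cells the call of Pramel19 was lost with any of KO 2, KO 3, WT 2 and WT 3 left out, with an adjusted p of up to 0.0752, and the other 4 genes kept theirs. Normexp background correction ended the KO against WT calls of Pramel12, Pramel19 and Pramel31, and use of slide 1 alone those of Pramel19 and Pramel31, and either setting ended all 4 calls against I53A cells.

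Of the other family members with a bright probe, Pramel13 averaged 8.55 ± 0.31 in KO cells, 7.97 ± 0.28 in I53A cells and 7.66 ± 0.23 in WT cells, with a KO minus WT difference of 0.89 (limma, adjusted p = 0.0892). Pramel48 averaged 6.26 ± 0.42, 6.68 ± 0.36 and 6.77 ± 0.36 in KO, I53A and WT cells (adjusted p = 0.435 for KO against WT). A dimmer Pramel48 probe, above background on 1 KO array and on no I53A or WT array, was called higher in KO than in WT cells (adjusted p = 0.0287, with no fold given), so the probes of this gene disagree. Prame itself, on the X chromosome, was at background on all arrays.

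Another 10 PRAME probes lie outside the series table and were not tested. In 5 of them, for Pramel31, Pramel39 and Pramel50, all KO arrays were well above background and above all WT arrays. Pramel31 and Pramel50 each had more than 1 of these probes. Among all tested probes, at background or not, 11.6% had the KO arrays wholly above the WT arrays. A Pramel26 probe among the 10, at background on all arrays, had all KO arrays below all WT arrays. The brighter Pramel50 probe averaged 7.48 ± 0.26 in KO cells, 5.99 ± 0.15 in I53A cells and 5.28 ± 0.22 in WT cells. These copies are alike, and such probes may read more than 1 of them.

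TATAAA, the core of the TATA box, stood in 14 of 42 PRAME windows (33.3%) on either strand, against 13% of all promoters, and the other motifs in none of the 42. Of the 5 genes that rose, 4 had a window, and 3 of these (Pramel20, Pramel31 and Pramel39) held TATAAA, against 4 of the 18 uncalled genes with a window. The copy that the Pramel39 probe reads is uncertain, and the window of Pramel37 held TATAAA as well. Windows of such copies are not separate promoters, and a link between TATAAA and the rise was not tested. Pramel6 and Pramel7 held none.

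No transcript passed the thresholds among genes listed around the CUL2 ligase, UHRF1 and LIF-STAT3 signalling, with which PRAMEL7 is known to work. Of 7 genes listed around the CUL2 ligase and UHRF1 (Cul2, Elob, Eloc, Rbx1, Vhl, Uhrf1 and Dnmt1), not all of them partners of PRAMEL7, limma called none in any comparison. At an unadjusted p under 0.05 for KO against WT 1 was higher (Vhl, 0.83) and 1 lower (Dnmt1, -0.57). The median difference was -0.19 beside -0.02 over all genes. Uhrf1 averaged 9.72 ± 0.38 in KO cells, 9.62 ± 0.23 in I53A cells and 9.45 ± 0.17 in WT cells (KO minus WT 0.27, adjusted p = 0.654). Cul2, the scaffold, averaged 8.62 ± 0.32, 9.08 ± 0.28 and 9.01 ± 0.17 in KO, I53A and WT cells (KO minus WT -0.39, adjusted p = 0.476). UHRF1 is controlled as a protein in this pathway, which arrays do not measure. Of 15 genes of the LIF-STAT3 pathway none was called either, and the median for KO against WT was -0.21. At an unadjusted p under 0.05 there 1 was higher (Klf4, 0.67) and 3 lower (Pim1, -0.98, Bcl3, -0.71, and Junb, -0.64). Stat3 averaged 9.77 ± 0.41 in KO cells, 9.51 ± 0.17 in I53A cells and 9.29 ± 0.35 in WT cells (KO minus WT 0.48, adjusted p = 0.421).

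Markers of several cell types moved in KO cells beside the PRAME genes. Of 7 measured genes of 2-cell-like cells, the rare mESCs that switch on a program of the cleavage-stage embryo, 4 rose in KO against WT cells (Gm2022, Gm8300, Gm21319 and Zscan4a), with a median difference of 4.75, or 3.85 with dim genes at their bounds, and 57.1% called beside 3.08% of all genes. Gm2022 averaged 9.97 ± 0.19 in KO cells, 7.20 ± 0.39 in I53A cells and 2.73 ± 0.22 in WT cells. It rose at least 78.3-fold in KO against WT cells (limma, adjusted p = 7.58e-07) and was also called higher in I53A than in WT cells (adjusted p = 9.4e-05). The summed signal of the 7 genes was 2078 to 2305 units in KO cells, 351 to 601 in I53A cells and 230 to 283 in WT cells. Zfp352 and Tcstv1 of the same list were not called, with adjusted p of 0.46 and 0.391 for KO against WT. Gm8300, Gm21319 and Gm2022 lie together on chromosome 12 (87514316 to 87896722), so their calls may not be separate and weigh heavily in the median and the share called. Zscan4a belongs to a group of near-identical copies, and its probe may read more than 1. The list was chosen with earlier results of these data known, so its counts are not an independent test. The part of such cells in the Pramel6 and Pramel7 levels was not tested.

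The counts that follow stand beside 3.08% of all genes called higher and 1.24% called lower in KO against WT cells. Of 8 male germ cell genes 4 rose in KO against WT cells (Dazl and Ddx4, RNA-binding proteins of germ cells, Mael, a piRNA factor, and Stra8, of meiotic entry) and Sycp3, of the synaptonemal complex, fell by 1.57 (adjusted p = 0.00365). Their summed signal was 1543 to 1995 units in KO cells, 1153 to 1266 in I53A cells and 566 to 717 in WT cells. Mael also rose in I53A against WT cells (2.72, adjusted p = 0.00166). Of 8 oocyte genes only Zp3, of the egg coat, was called, at 1.19 in KO against WT cells (adjusted p = 0.00978), and 5 were at background on all 9 arrays. Of 6 primitive endoderm genes Gata4, Gata6 and Sox17 were called higher in KO than in WT cells. Only 1 of the 6 was above background on all arrays of any group, and 3 were at background on all 9 arrays. At most 1 of these calls thus rests on a group with every array above background. The summed signal of the 6 was 168 to 250 units in KO cells, 84.4 to 90.6 in I53A cells and 59.2 to 97.4 in WT cells. Of 8 ES cell genes only Sox2 was called, lower in KO than in WT cells by 1.03 (adjusted p = 0.0425). At an unadjusted p under 0.05, 3 of the 8 were higher, Nanog (1.06), Tdgf1 (0.95) and Klf4 (0.67). By that measure 2 were lower, Sox2 and Esrrb (-0.92), and the median of the 8 was 0.03. Of 6 trophoblast genes none was called (2 lower at an unadjusted p under 0.05). Of 6 fibroblast genes only Thy1 was called, higher at 1.31 (adjusted p = 0.0156). At an unadjusted p under 0.05 the collagen genes Col1a1, Col1a2 and Col3a1 were lower (-0.57, -0.98 and -0.77), and the median of the 6 was -0.24. The part of these cells in the PRAME family levels was not tested.

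**Figure D5:**
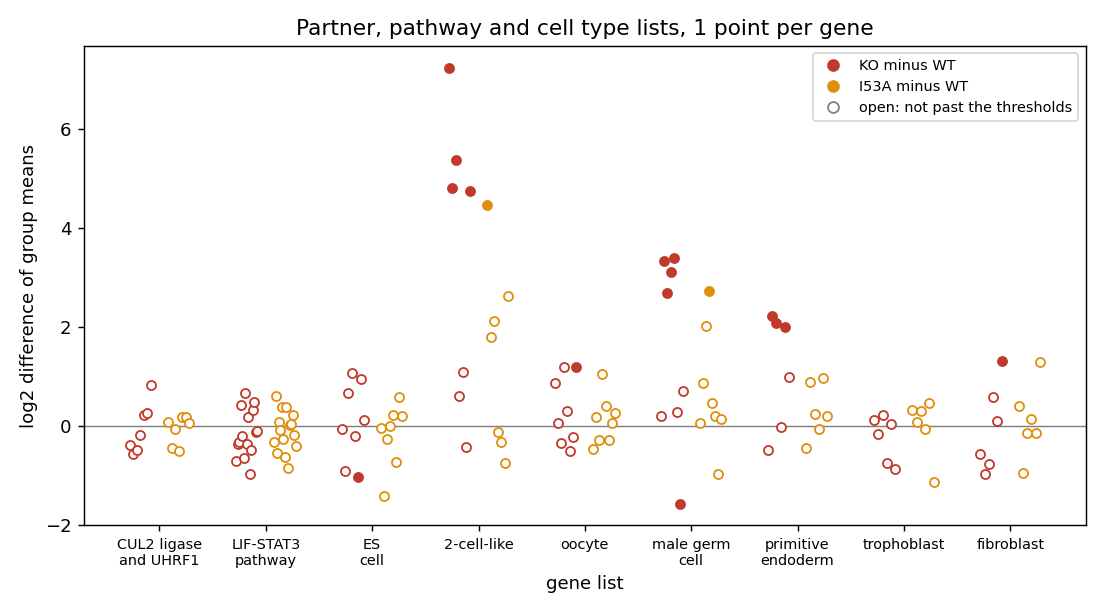
Log2 difference of group means (vertical axis) for each gene of 9 lists, 1 circle per gene, with KO minus WT in red and I53A minus WT in orange. Filled circles passed the thresholds. The highest circle is Gm2022, at a fitted 7.24 in KO and 4.47 in I53A cells against WT spots at background, and no circle of the CUL2 or LIF-STAT3 lists is filled.

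The genes whose levels followed Pramel6 most closely over the 9 arrays, among 14440 probes above background in at least 1 whole group, were Calcoco2 (Pearson r = 0.992), Tdpoz4 (0.99), Tmem92 (0.989), Tmem231 (0.988) and H19 (0.987). Calcoco2, an autophagy receptor, averaged 13.39 ± 0.12 in KO cells, 10.33 ± 0.16 in I53A cells and 9.05 ± 0.17 in WT cells. Tdpoz4 and Tmem92 were, like Pramel6, above background in KO cells alone, and so was H19, an imprinted long noncoding RNA, at 7.68 ± 0.09 in KO cells, 4.45 ± 0.22 in I53A cells and 3.99 ± 0.50 in WT cells. Pramel7 was followed by Gpx2 (r = 0.987), Ifi27 (0.979), Zfp59 (0.976), C130073F10Rik (0.976) and Fam25c (0.973). Ifi27, an interferon-induced gene, averaged 9.32 ± 0.41 in KO cells, 5.05 ± 0.11 in I53A cells and 5.17 ± 0.13 in WT cells, and Gpx2, a glutathione peroxidase, 9.56 ± 0.25, 7.84 ± 0.18 and 7.73 ± 0.18 in KO, I53A and WT cells. Pramel6 and Pramel7 themselves had r = 0.949, and Uhrf1 had r = 0.350 with Pramel6 and 0.330 with Pramel7. With 3 groups of 3 arrays each r is set mostly by the differences between groups, and genes are ranked by it as a description. For Pramel6 every I53A and WT value was at background, so the step between these groups in its r rests on signals that do not rank them.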

How the data were processed

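Levels were measured in 9 arrays (KO, I53A and WT, 3 each, grouped by sample title) of Agilent SurePrint G3 mouse design. The authors read the scans in Feature Extraction 11.5.1.1, and the deposited scan files hold a background-subtracted processed intensity per spot. The deposited series table holds log2 values of 30170 probes, quantile normalised by the authors, and their fold changes and p-values, which were not used. The submitters' processing notes name mm10 and limma. Arrays have no read depth: their number and the share of probes above background limit the precision.

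Values were recomputed in R 4.3.3 with limma 3.58.1: spots that were controls or flagged as outliers were dropped, intensities log2 transformed, spots of a probe averaged and 55681 probes quantile normalised. A linear model with a mean for each group and 6 residual degrees of freedom gave two-sided moderated tests, adjusted by Benjamini-Hochberg over the table's probes. Calls needed a change over 2-fold and an adjusted p below 0.05. The fit was tested on simulated data. The study's methods call the 3 arrays of a group biological replicates, and each group is 1 cell line, so p-values measure the spread between samples of a line. "At least" folds compare group means of normalised log2 values after raising each dim signal to the lowest signal that was well above background on its array, where it lay under that. Since some spots above that signal are not well above background, these folds are bounds against that signal and not against a strict detection limit. Summed signals are sums of linear normalised values per array.

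Gene symbols came from the RefSeq table of GRCm38.p6 by accession, symbol, synonym or start site, for 27650 of 30170 probes, and 98.9% of the matched transcript starts lay in or within 1000 bases of that gene. A gene with several probes is represented by the brightest. Sequences are from RefSeq and the series table, and the windows were aligned with Biopython 1.88. The Pramel4 probe sequence is not used here.

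The 5 genes and all lists were chosen with earlier results of these data known. Named were the 5 genes, other PRAME genes called in any comparison and the 5 brightest, called genes of each list, Uhrf1, Cul2 and Stat3, and the 5 genes most like each measured member. Pramel50, Prame, Olfr153, the second Pramel48 probe, Zfp352 and Tcstv1 were added after their values were seen, as were list genes named at an unadjusted p under 0.05. Alternatives were scaling, the deposited values, background correction (normexp, offset 50, on median signals, since mean signals are not used here), dim or outlier spots, the probes tested, slide, replicate block, the groups fitted and each array left out.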

Additional observations from a re-analysis of the deposited data

Results flagged for a closer look

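For 4 PRAME family genes outside the 5 described, the differences of KO and of I53A cells from the same WT arrays differed from each other by limma's KO against I53A contrast. The value is that contrast, in log2 units. It was 1.90 for Pramel12 (adjusted p = 0.023), 1.5 for Pramel20 (adjusted p = 0.0078), 1.46 for Pramel39 (adjusted p = 0.0352) and 1.15 for Pramel31 (adjusted p = 0.0405), each higher in 3 of 3 KO arrays than in any I53A array. Of all genes 1.09% were called higher in that contrast, and 7.61% of all probes had the KO arrays wholly above the I53A arrays. The 4 genes were picked by this contrast, so their lack of overlap adds no support. Over the arrays left out in turn, the adjusted p reached 0.0923 for Pramel12, 0.0392 for Pramel20, 0.14 for Pramel39 and 0.136 for Pramel31.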

How the results depend on the processing

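The values of Pramel6 and Pramel7 are a description, since the genes were chosen with them known, and their thresholds support nothing. With normexp the log2 differences of Pramel6 were 4.0 (KO against WT), 3.88 (KO against I53A) and 0.12 (I53A against WT), and those of Pramel7 were 0.99 and 0.97 in the first and second of these. Normexp adds an offset of 50 to each signal, which by construction shrinks differences of dim probes. Leaving out 1 array gave 7.47 to 7.74, 5.97 to 6.36 and 1.25 to 1.64 for Pramel6 and 1.49 to 1.80, 1.63 to 1.84 and -0.22 to 0.07 for Pramel7 in the same order. Single arrays left out aside, Pramel6 passed the thresholds in I53A against WT cells in 2 of 11 settings, with dim probes left out and with slide as a block. Pramel7 passed in KO against WT and in KO against I53A cells in 9 of 11, failing under normexp and on slide 1 only.

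The other PRAME genes called higher in KO against WT cells numbered 5, with 2 under normexp, 3 on slide 1 only and 4 to 6 without 1 array. In KO against I53A cells they numbered 4, with 0 under normexp, 0 on slide 1 only, 1 with the replicate block, 1 with only these groups fitted, 1 without KO 2 or any I53A array, 2 without KO 1, KO 3 or WT 1 and 4 at most without any other. In I53A against WT cells 1 (Pramel20) was called with dim probes left out and 1 with all probes of a gene averaged, against 0, and 0 without any 1 array. None was called lower in any setting.

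Over all probes, 824 were called higher in KO against WT cells (normexp 233, slide 1 only 290, 456 to 792 without 1 array) and 335 lower (normexp 93, slide 1 only 42, replicate block 213, 151 to 313 without 1 array). In I53A against WT cells 71 were higher (75th percentile scaling 35, normexp 25, dim probes left out 182, slide 1 only 1, replicate block 19, 2 groups fitted 34, 16 to 62 without 1 array) and 28 lower (scaling 9, dim probes left out 84, adjusted over all non-control probes 18, slide block 17, slide 1 only 1, replicate block 6, 2 groups fitted 11, 5 to 25 without 1 array). In KO against I53A cells 289 were higher (normexp 101, slide 1 only 61, replicate block 163, 2 groups fitted 180, 147 to 254 without 1 array) and 111 lower (scaling 73, normexp 31, dim probes left out 180, slide 1 only 2, replicate block 31, 2 groups fitted 33, 30 to 72 without 1 array). The higher count of KO against WT moved by over 1.5 times without KO 2 (518), KO 3 (506), WT 1 (472) or WT 3 (456), the lower count without any of these arrays or their group mates but KO 2, the higher count of KO against I53A without KO 2 (147), KO 3 (153), I53A 1 (151) or I53A 2 (151), its lower count without any of the 9 arrays, and both counts of I53A against WT without KO 2 or any I53A or WT array. Slide 1 only has 2 arrays per group. The cause of the other shifts was not tested.

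Same-numbered arrays did not deviate together (r from -0.271 to 0.222, 2 of 9 arrays correlating best with their own number), so the numbers do not pair the samples. Signal over background is a limit: 3 of the 5 genes, and Pramel6 outside KO cells, were below what these arrays detect.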
